A study of Homo sapiens with 8 samples.

Results

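The mitochondrial ribosomal protein genes are the nuclear genes whose RefSeq symbol is MRPL or MRPS followed by a number and at most 1 of the letters A to C. In this RNA sequencing study of NB4 cells 77 of the 22627 symbols met that rule, 49 with an MRPL symbol (large subunit) and 28 with an MRPS symbol (small subunit), spread over 21 chromosomes. They are carried by 131 transcript models, of which 99 had a value above 0 in at least 1 group, and no gene was listed at 0 in any group. NB4 is an established acute promyelocytic leukaemia cell line, which all-trans retinoic acid (ATRA) drives towards neutrophil-like cells. All groups carried a lentiviral short hairpin RNA, either a scrambled sequence (shScr) or one directed at TFEB (shTFEB), which encodes a regulator of lysosomal and autophagy genes. Each of the 2 cell lines was treated for 72 h with the ethanol vehicle or with 1 µM ATRA. Each of the 4 groups has 2 samples in the labels, but the deposited tables hold 1 FPKM (fragments per kilobase of transcript, scaled to the mapped fragments of the library) per transcript model and group. There is therefore no replicate error and no test in what follows, and a difference between groups is a difference between these 4 values. The verbs rose and fell are kept for genes whose log2 ratio, computed as log2((FPKM + 1)/(FPKM + 1)), reached 1 in size, a 2-fold difference.

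Mitochondrial ribosomes sit in the mitochondrial matrix and make the few proteins encoded by mitochondrial DNA, all of them core subunits of the respiratory chain and ATP synthase. Their RNAs come from the mitochondrial genome, whereas every protein is encoded in the nucleus, made in the cytosol and imported. Some of these proteins have counterparts in bacterial ribosomes, and others were added in the mitochondrial lineage.

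TFEB itself stood at 1.20 FPKM in shScr vehicle cells, 19.4 FPKM in shScr ATRA cells, 1.35 FPKM in shTFEB vehicle cells and 8.44 FPKM in shTFEB ATRA cells. It was thus lower in the shTFEB line under ATRA (log2 ratio -1.11) but not under vehicle, so the vehicle cells are called the cells labelled shTFEB. Sequencing depth relative to the shScr vehicle group, read from the steps between low values, was 1.05 in the shScr ATRA group, and in the shTFEB line it was 1.17 with vehicle and 0.911 with ATRA. The 8 promyelocyte and neutrophil markers summed to 4362 and 1132 FPKM in shScr vehicle and ATRA cells and to 2858 and 955 FPKM in the shTFEB line. The highest marker alone held 3871 and 662 FPKM in the shScr line and 2462 and 594 FPKM in the shTFEB line. The median over the 8 went the other way, from 25.3 to 56.2 FPKM and from 28.8 to 40.1 FPKM. Of the 7 compared, 4 fell and 2 rose with ATRA in each line. The granule gene MPO (myeloperoxidase) had log2 ratios of -2.55 and -2.05. ITGAM, the integrin of maturing myeloid cells, stood at 2.18 and 83.1 FPKM in the shScr line and at 5.63 and 54.6 FPKM in the shTFEB line, so its log2 ratios were 4.72 and 3.07 and it was 1.06 higher in the cells labelled shTFEB under vehicle. ELANE (neutrophil elastase) was at 0 in 3 groups and at 0.0463 FPKM in shTFEB vehicle cells. The 6 erythroid markers summed to 0.0511 to 0.173 FPKM and the 6 fibroblast and epithelial markers to 4.31 to 7.47 FPKM per group. The 6 lymphoid markers summed to 6.33 and 5.12 FPKM in the vehicle groups and to 19.4 and 20.8 FPKM under ATRA, where the highest marker alone held 18.5 and 19.7 FPKM. The part of these differences in the results was not tested, and in bulk samples fewer cells of a type and less RNA per cell cannot be told apart.

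In shScr cells ATRA was accompanied by lower values of nearly the whole family: 28 of the 77 genes fell and 1, MRPS6, rose, against 15.2% and 12.5% of the 11052 genes compared. The 28 became 17 with median-of-ratios rescaling of the groups, which also turned the falls and rises over all genes from 1676 and 1384 to 1256 and 1612, and 16 with a pseudocount of 5 in place of 1. The median log2 ratio of the 77 genes was -0.90, beside -0.15 for all genes compared. MRPS26, MRPS2 and MRPL3 fell furthest. MRPS26 (hg19 chr20:3026675-3028896), a small-subunit protein of the mitochondrial lineage, stood at 59.4 FPKM in shScr vehicle, 13.5 FPKM in shScr ATRA, 63.7 FPKM in shTFEB vehicle and 16.6 FPKM in shTFEB ATRA cells. MRPS6 (hg19 chr21:35445823-35515334), the counterpart of a bacterial protein of the small-subunit platform, stood at 24.1, 119, 29.3 and 110.5 FPKM in the same order. Both ATRA groups therefore lay below both vehicle groups for MRPS26 and above both for MRPS6.

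To place the genes at the extremes of these comparisons, the 120 bases upstream of the transcript start are shown for the gene that fell furthest (MRPS26), the large-subunit gene that fell furthest (MRPL3), the gene that differed most between the cell lines under ATRA (MRPL40) and the gene that rose (MRPS6). The sequences are from RefSeq on GRCh38.p14, 5′ to 3′ on the gene's own strand, at chr20:3045932-3046051 on the plus strand, chr3:131502972-131503091 on the minus strand, chr22:19432425-19432544 on the plus strand and chr21:34073458-34073577 on the plus strand. Capitals mark matches to CCGGAAG or its reverse complement, the core bound by ETS factors such as GABP, and to TGCGCA, which reads the same on both strands and is the repeated unit of the site bound by NRF1 (nuclear respiratory factor). Every sequence shown holds a match, but MRPS2, the next largest fall after MRPS26 in shScr cells, holds neither of them in its promoter windows.
MRPS26: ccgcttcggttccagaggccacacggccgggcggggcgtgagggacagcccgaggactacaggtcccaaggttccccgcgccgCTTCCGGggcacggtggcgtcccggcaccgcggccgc
MRPL3: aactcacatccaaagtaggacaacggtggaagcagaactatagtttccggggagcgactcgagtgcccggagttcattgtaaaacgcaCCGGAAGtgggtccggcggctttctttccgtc
MRPL40: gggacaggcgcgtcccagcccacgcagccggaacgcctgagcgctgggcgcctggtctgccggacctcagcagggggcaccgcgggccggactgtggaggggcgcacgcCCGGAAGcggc
MRPS6: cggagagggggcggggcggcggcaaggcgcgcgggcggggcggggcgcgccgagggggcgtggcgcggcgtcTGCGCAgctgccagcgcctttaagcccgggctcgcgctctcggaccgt

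A promoter window of 300 bases (250 before to 50 after the start) was found for 69 of the 77 genes, and 3 sequences were searched in it on both strands. The counts are of genes, and some genes had more than 1 window (4 for MRPL34). CCGGAAG was present in 29 of the 69 genes (42.0%), beside 21.7% of the 8721 genes compared that had a window and 10.7% of all 27305 genes with a window. TGCGCA was present in 14 (20.3%), beside 14.7% and 8.42%. CACGTG, the E-box sequence bound by MYC with MAX and by TFEB among others, was present in 6 (8.70%), beside 10.6% and 7.43%. None of the 3 sequences contains another. The median log2 ratio for ATRA in shScr cells was -0.74 for the genes with CCGGAAG and -0.95 for those without, -0.70 and -0.86 for TGCGCA, and -0.86 and -0.77 for CACGTG. No test was run between genes with and without a sequence, and a match describes letters in a window, not a bound site.

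Under vehicle the median level was 42.8 FPKM in shScr cells and 40.6 FPKM in the cells labelled shTFEB, beside 10.9 and 11.2 FPKM over all genes compared. With ATRA it was 23.8 FPKM in the shScr line and 29.3 FPKM in the shTFEB line, beside 10.6 and 11.2 FPKM. FPKM are per length, so genes can be ranked, here by the deposited FPKM. For some genes that FPKM lay well above its own deposited bounds, as for MRPL51 in shScr vehicle cells (184 FPKM, bounds 126 and 135). A ranking by the bounds could therefore differ. Over the mean of the 4 groups the highest were MRPL4, MRPL33, MRPL51, MRPL20, MRPS35 and MRPL18, and the lowest were MRPL22, MRPL19, MRPL57 and MRPS14. MRPL4 helps to line the tunnel through which the new protein leaves. In the shScr line it stood at 205 FPKM with vehicle and 72.1 FPKM with ATRA. The shTFEB line had 223 and 99.0 FPKM. MRPL22, a neighbour in that tunnel, was the lowest in all 4 groups, at 8.48 and 3.80 FPKM in the shScr and 8.35 and 5.10 FPKM in the shTFEB line. The proteins are present once each in a ribosome apart from the stalk protein MRPL12, yet the RNA levels spanned a wide range and the upper quartile was 2.60 times the lower in shScr vehicle cells. Summed over the family, the FPKM were 4005, 2259.7, 4074 and 2756, so the sum was 1.77-fold lower with ATRA in shScr cells and 1.48-fold lower in shTFEB cells.

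**Figure D1:**
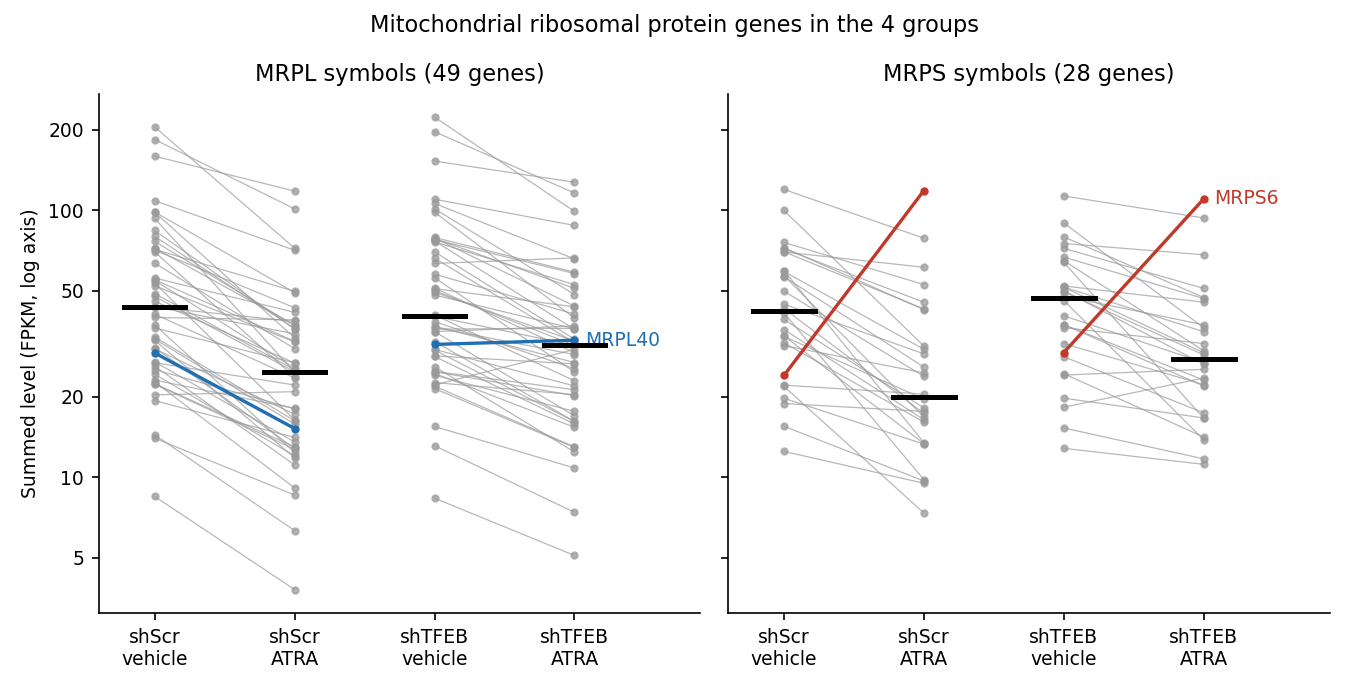
Level of each mitochondrial ribosomal protein gene in the 4 groups, in summed FPKM on a log axis, with MRPL symbols on the left and MRPS symbols on the right; each point is a gene, thin lines join its vehicle and ATRA values within a cell line, and black bars are medians. The MRPL medians are 43.4 and 24.7 FPKM in shScr and 40.1 and 31.2 FPKM in shTFEB vehicle and ATRA cells, the MRPS medians 42.0, 20.1, 46.8 and 27.8 FPKM, and the coloured lines follow MRPL40 and MRPS6.

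Among the large-subunit genes 17 of 49 (34.7%) fell with ATRA in shScr cells and none rose, with a median log2 ratio of -0.91. Over all genes compared 15.2% fell and 12.5% rose. MRPL3, whose bacterial counterpart reaches towards the peptidyl transferase centre, stood at 93.2 FPKM in vehicle and 24.7 FPKM in ATRA cells, a 3.77-fold lower value. MRPL24, a protein of the region around the tunnel exit, went from 53.4 to 16.4 FPKM (log2 ratio -1.64). MRPL12, the counterpart of the bacterial stalk protein that recruits translation factors, went from 98.4 to 33.3 FPKM (log2 ratio -1.54). MRPL36, a small protein with a bacterial counterpart, and MRPL15 both had a log2 ratio of -1.52, and MRPL4 one of -1.50. These large falls included genes of high level (MRPL3, MRPL4, MRPL12) and of middling level (MRPL15, at 37.3 FPKM under vehicle). Across the 77 genes the log2 vehicle level and the response had Pearson's r of -0.26 and Spearman's rho of -0.25 in shScr cells. That is a description over genes that share libraries and also share the vehicle value, which enters both axes.

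Among the small-subunit genes 11 of 28 fell (39.3%, beside 15.2% of all genes compared) and 1 rose, with a median of -0.75. MRPS2, the counterpart of a protein that joins the head and body of the bacterial small subunit, went from 41.3 to 9.80 FPKM in shScr cells (log2 ratio -1.97). MRPS17, the counterpart of a bacterial protein bound to ribosomal RNA, went from 56.9 to 16.8 FPKM (log2 ratio -1.70), and MRPS34, of the mitochondrial lineage, from 99.8 to 31.0 FPKM (log2 ratio -1.65). MRPS12, the counterpart of the bacterial decoding-centre protein, went from 21.9 to 7.35 FPKM (log2 ratio -1.46). That value is the sum of 2 models, and 1 of them was listed at 0 in shScr ATRA cells after 8.77 FPKM in vehicle cells. The other model alone had a log2 ratio of -0.76, so the call for MRPS12 rests on the model listed at 0.

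The falls were found in both evolutionary classes. Of the 46 genes with a bacterial counterpart 18 fell (median -0.94), and of the 31 of the mitochondrial lineage 10 fell (median -0.76). The share of all genes compared that fell was 15.2% (median -0.15). By place in the ribosome, 3 of the 8 genes around the tunnel exit fell (median -0.86), as did 2 of the 8 of the central protuberance (median -0.97) and 1 of the 5 of the stalk (median -0.34). Stalk values differed widely, with MRPL12 at -1.54 and MRPL11 at -0.91, while MRPL10, MRPL54 and MRPL53 stood at -0.34, -0.27 and -0.03. MRPL53 had nearly equal values in shScr vehicle and ATRA cells, 39.7 and 38.9 FPKM. The class medians are descriptions with no test between classes. The counts by place, with MRPL12 alone in the stalk, rest on too few genes to set against the share over all genes.

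The 2-fold mark cut through a dense stretch of values. In shScr cells MRPL13 was just inside it at -1.01 and MRPL46 just outside, with 16.3 against 33.5 FPKM, and 19 genes lay within 0.1 of it. Read without a threshold, 75 of the 77 genes had a value below 0 and 2 above it, beside 57.4% and 42.2% of all genes compared, and 51 lay under the lower quartile of all genes (-0.68). With median-of-ratios factors 71 of the 77 were still below 0, and with upper-quartile factors 72. The exceptions as deposited were MRPS6 and MRPL17, a protein near the tunnel exit, which stood at 20.4 and 20.9 FPKM.

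**Figure D2:**
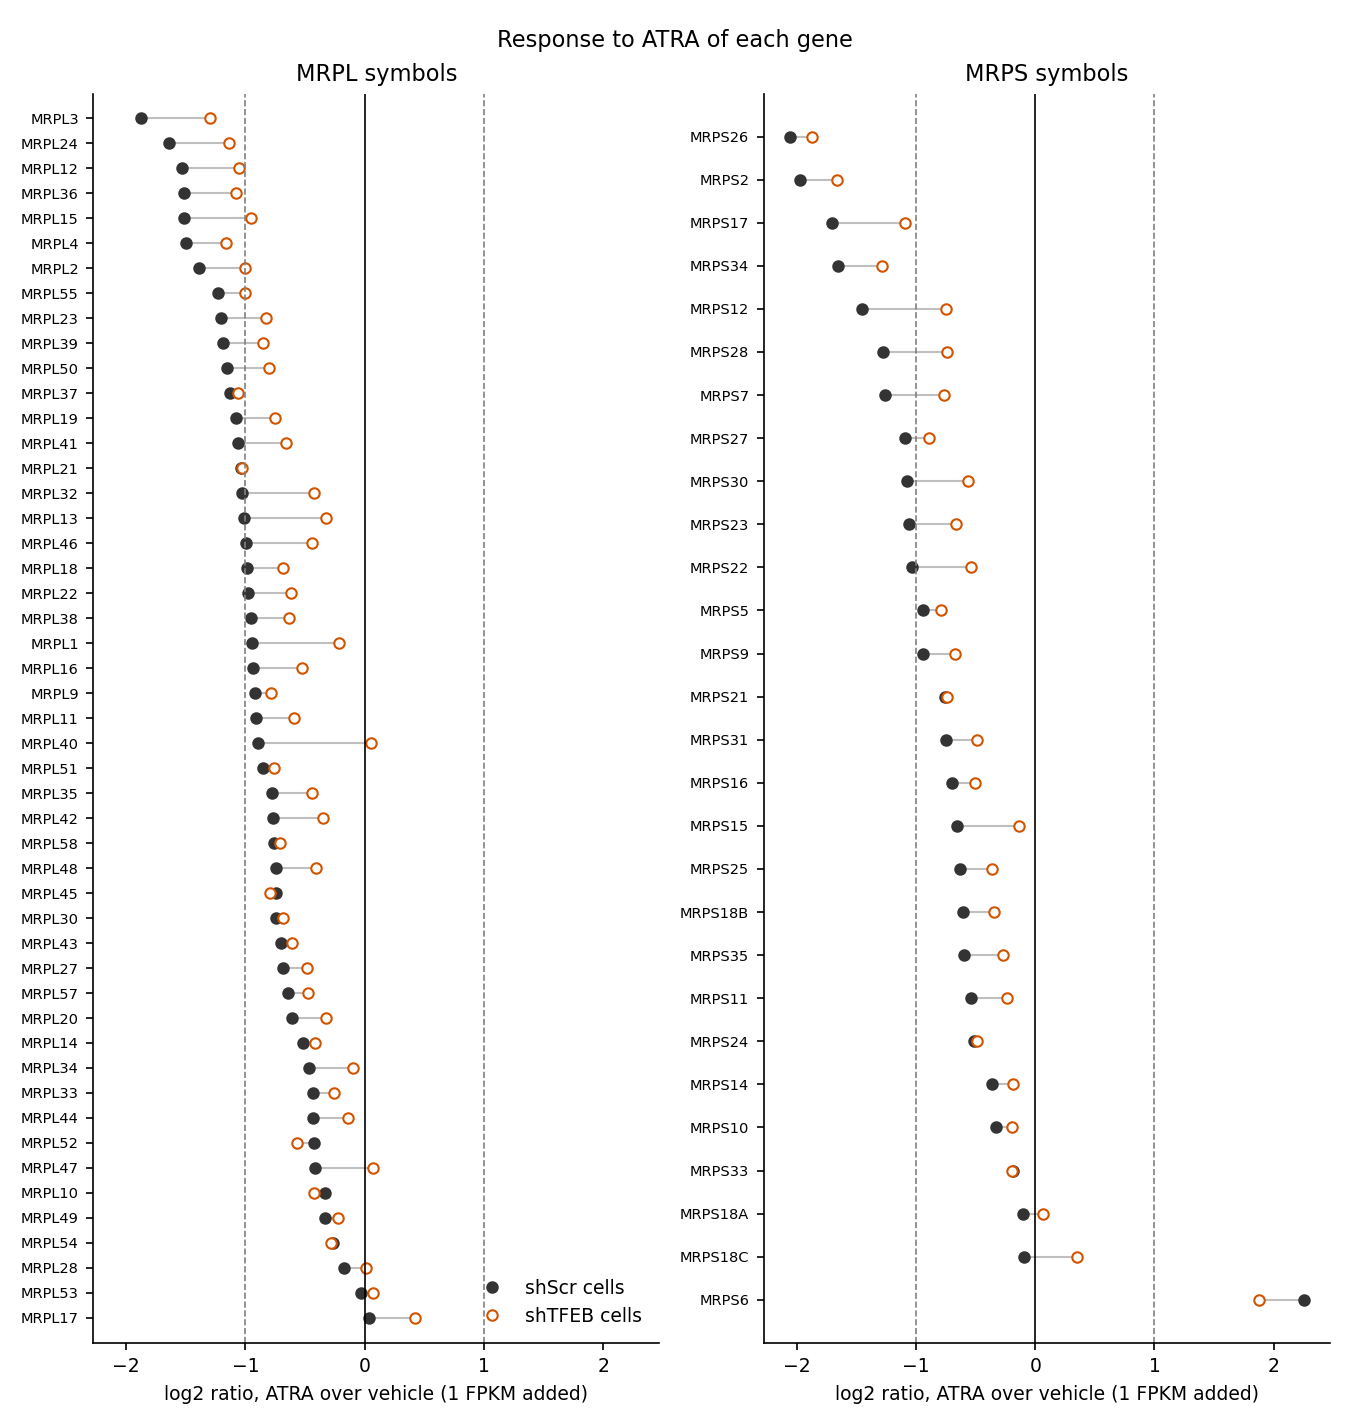
The log2 ratio of ATRA over vehicle (1 FPKM added) for every mitochondrial ribosomal protein gene in shScr cells (filled points) and shTFEB cells (open points), with MRPL and MRPS symbols in separate panels, grey lines joining the points of a gene and dashed lines at the 2-fold marks. Most points lie left of 0, MRPS26 is lowest in both lines (-2.06 and -1.88), and MRPS6 alone is beyond the right-hand mark (2.25 and 1.88).

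The 3 MRPS18 paralogues, all related to a single bacterial protein, had smaller differences than most of the family. MRPS18A, which structures place in the large subunit, stood at 22.1 and 20.5 FPKM in shScr vehicle and ATRA cells. MRPS18B stood at 44.5 and 29.0 FPKM, and MRPS18C at 18.9 and 17.7 FPKM. Their log2 ratios were -0.11, -0.60 and -0.09, all short of the 2-fold mark. MRPS33, MRPL28 and MRPL54 also differed little, at -0.19, -0.18 and -0.27. The value of MRPS33 includes a model listed at 0 in shScr vehicle and at 10.8 FPKM in shScr ATRA cells. Its main model alone had a log2 ratio of -0.46.

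MRPS6 was the only gene of the family that rose, by a factor of 4.93 in shScr and of 3.77 in shTFEB cells. It shares its RefSeq transcript start with SLC5A3, the gene of a myo-inositol transporter, and their promoter windows are the same sequence, the one printed above for MRPS6. SLC5A3 rose too, from 3.77 to 27.3 FPKM in the shScr line and from 4.04 to 17.7 FPKM in the shTFEB line (log2 ratios 2.57 and 1.89). Both genes thus stood high in both ATRA groups and low in both vehicle groups. How reads from shared sequence were divided between the 2 genes was not tested. In all, 10 of the 77 genes overlap another gene with a mean of at least 1 FPKM, and the sources used here do not state that strand was used in counting. Without those 10 genes 24 of 67 fell and none rose in shScr cells, beside 1672 falls and 1383 rises among 11042 genes compared.

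In shTFEB cells ATRA was accompanied by a fall in 13 of the 77 genes and a rise in 1, again MRPS6, against 10.5% and 11.5% of all genes compared. The 13 became 5 with median-of-ratios rescaling, 8 with a pseudocount of 5 and 10 with the highest model per symbol. Over all genes those settings gave 884 falls among 11056, 582 among 11052 and 1142 among 10899. With median-of-ratios rescaling the share of falls in the family was thus below that of all genes. The median log2 ratio of the 77 genes was -0.56, beside -0.13 for all genes. The 13 were MRPL2, MRPL3, MRPL4, MRPL12, MRPL21, MRPL24, MRPL36, MRPL37, MRPL55, MRPS2, MRPS17, MRPS26 and MRPS34. MRPL21 includes a model listed at 7.38 FPKM in shTFEB vehicle cells and at 0 in the other groups. Its main model alone, at 58.8 and 31.9 FPKM, was short of the mark. So was 1 of the 2 models of MRPL24, at 26.8 and 14.2 FPKM, while the other went from 29.1 to 10.6 FPKM. MRPL55 is the sum of 8 models, most of them listed at 0 in some group. Each of the 13 also fell in shScr cells, where a further 15 fell. The largest falls were those of MRPS26 at -1.88, MRPS2 at -1.66, MRPL3 at -1.30, MRPS34 at -1.28, MRPL4 at -1.16 and MRPL24 at -1.14. By subunit 9 of 49 large-subunit genes fell (median -0.59) and 4 of 28 small-subunit genes fell (median -0.52). Values below 0 were found in 69 of the 77, beside 57.6% of all genes, and values above 0 in 8, beside 41.9%. The mark fell between MRPL2 at -1.01 and MRPL15 at -0.95.

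Values above 0 in shTFEB cells belonged to MRPS6, MRPL17, MRPS18C, MRPL47, MRPS18A, MRPL53, MRPL40 and MRPL28. Apart from MRPS6 they ranged from 0.01 (MRPL28) to 0.42 (MRPL17), short of the mark. MRPL17 stood at 22.2 FPKM in vehicle and 30.1 FPKM in ATRA cells of this line. MRPL47, another protein near the tunnel exit, stood at 63.2 and 66.3 FPKM there, but at 55.8 and 41.4 FPKM in shScr cells. MRPL10, a stalk protein, differed from these, with 23.1 and 18.1 FPKM in the shScr line and 24.1 and 17.7 FPKM in the shTFEB line.

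The responses of the 2 lines ran in parallel across the family. Pearson's r was 0.93 and Spearman's rho 0.87 over the 77 genes, and 0.89 and 0.86 without MRPS6. Over all 11052 genes compared r was 0.81 and rho 0.91. These are descriptions over genes measured in the same 4 groups, and no group is shared between the 2 responses. In 71 of the 77 genes the value in shTFEB cells was the less negative or more positive, against 56.1% of all genes compared. The 6 others were MRPL10, MRPL45, MRPL52, MRPL54, MRPS33 and MRPS6.

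**Figure D3:**
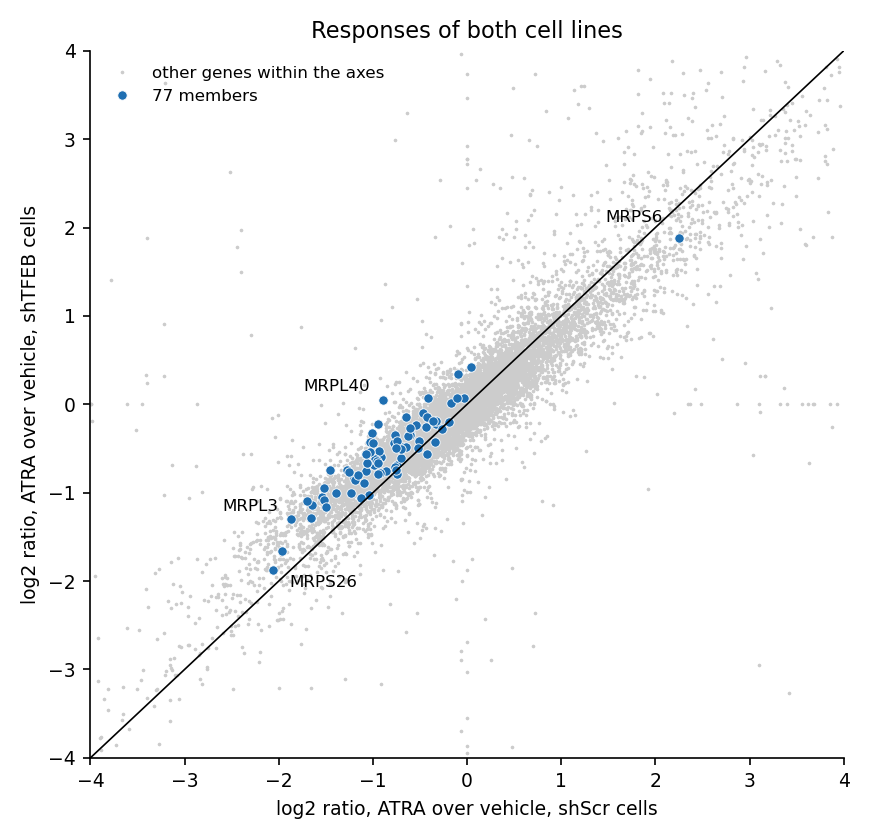
Response to ATRA in shScr cells (horizontal, log2 ratio) against the response in shTFEB cells (vertical, log2 ratio), with the 77 mitochondrial ribosomal protein genes in blue, the other genes within the axes in grey and a line of equal response. All but 6 of the 77 points lie above the line, and MRPL40 lies farthest above it (0.05 against -0.90).

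Between the cell lines under vehicle no gene of the family passed the 2-fold mark, where 1.06% of all genes compared were higher and 0.787% lower in the cells labelled shTFEB. The median log2 ratio was 0.06, beside 0.02 for all genes. Values were above 0 for 47 genes (55.6% of all genes compared) and below it for 30 (43.5%), and ranged from -0.42 (MRPS33) to 0.27 (MRPS6). MRPS33, a small-subunit protein of the mitochondrial lineage, had 69.8 FPKM in shScr cells and 52.1 FPKM in the cells labelled shTFEB, and its main model alone gave a log2 ratio of -0.61. MRPL28, a large-subunit protein with a bacterial counterpart, stood at 43.4 and 35.9 FPKM (log2 ratio -0.27). MRPL15, MRPL48 and MRPS5 came next at -0.20, -0.19 and -0.19, and at the upper end MRPL49, MRPS10 and MRPL44 stood at 0.22, 0.22 and 0.21. The sum over the family differed by a factor of 1.02.

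Under ATRA 1 gene of the family was past the mark, MRPL40, higher in shTFEB cells, against 2.67% of all genes higher and 1.58% lower. The median log2 ratio was 0.33, beside 0.06 for all genes, and 47 of the 77 lay above the upper quartile of all genes (0.26). Above 0 were 65 genes (58.9% of all genes compared) and below it 12 (40.4%). MRPL40 (hg19 chr22:19420036-19423596) is a protein of the central protuberance whose gene lies in the DiGeorge syndrome deletion region. It stood at 29.2 FPKM in shScr vehicle, 15.2 FPKM in shScr ATRA, 31.4 FPKM in shTFEB vehicle and 32.6 FPKM in shTFEB ATRA cells. Its low value was that of shScr ATRA cells alone, and the other groups were within a few FPKM of each other. The ratio between the lines under ATRA was 2.14 (log2 ratio 1.05). It was short of the mark with median-of-ratios factors (0.99) and with upper-quartile factors (0.95).

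Next in this comparison came MRPS12 at 0.86, MRPL13 at 0.82, MRPS17 at 0.79, MRPS7 at 0.70 and MRPL46 at 0.69. MRPL13, a large-subunit protein with a bacterial counterpart, stood at 15.8 FPKM in shScr ATRA and 28.8 FPKM in shTFEB ATRA cells. MRPS12 owed its place to the model listed at 0 in shScr ATRA cells, since the log2 ratio of its other model was 0.21. At the other end stood MRPS33 at -0.43 and MRPL45, which anchors the ribosome to the inner membrane, at -0.21, with 26.8 FPKM in shScr ATRA and 23.0 FPKM in shTFEB ATRA cells. MRPS33 is the sum of 2 models, 1 of them listed at 0 in shScr vehicle cells, and its other model gave -0.38 here.

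**Figure D4:**
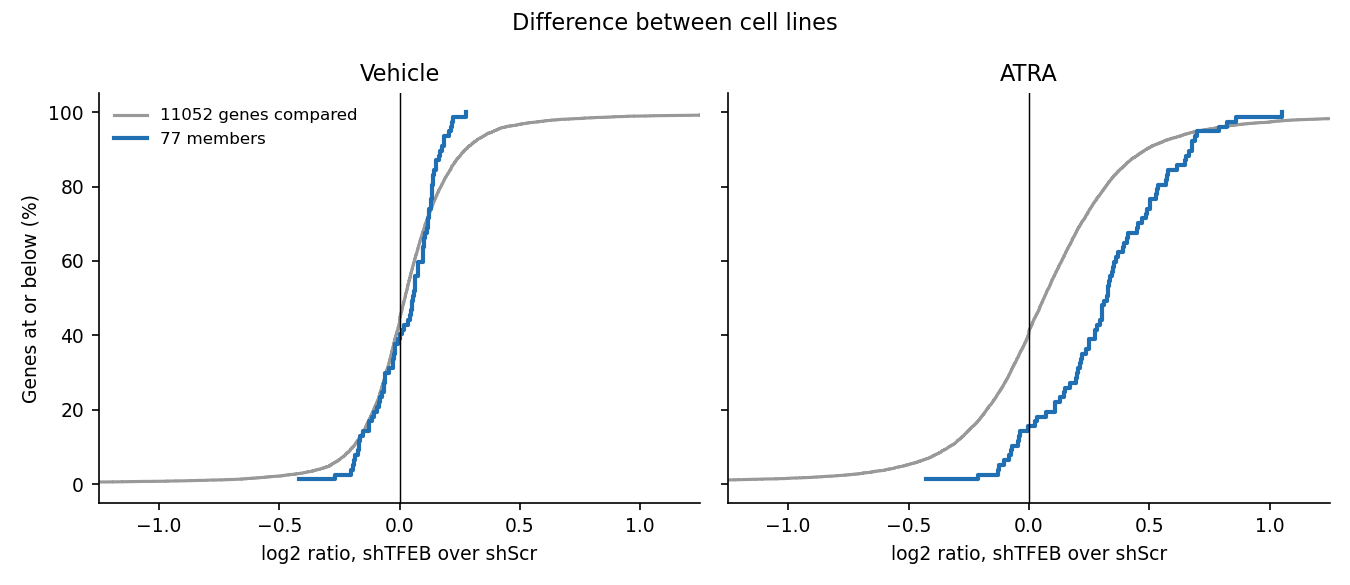
Cumulative share of genes (vertical, %) at or below each log2 ratio of shTFEB over shScr (horizontal), under vehicle on the left and ATRA on the right, for the 77 mitochondrial ribosomal protein genes (blue) and all 11052 genes compared (grey). Under vehicle the curves lie close together (medians 0.06 and 0.02), and under ATRA the blue curve lies to the right over most of its length (medians 0.33 and 0.06), up to 1.05 for MRPL40.

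The difference of the responses (shTFEB minus shScr, log2) reached the mark in no gene of the family, against 2.42% of all genes upward and 1.86% downward. Its median was 0.31, beside 0.04 for all genes, and it ranged from -0.38 (MRPS6) to 0.95 (MRPL40). After MRPL40 came MRPL1 at 0.73, MRPS12 at 0.71, MRPL13 at 0.68, MRPS17 at 0.61 and MRPL32 at 0.60. The value of MRPS12 again rests on the model listed at 0 in shScr ATRA cells, and its other model gave -0.18. MRPL1, counterpart of the protein of the bacterial ribosome's other stalk, stood at 27.1 and 13.6 FPKM in the shScr line and at 24.9 and 21.3 FPKM in the shTFEB line. MRPL32, a protein processed by an inner-membrane protease on its way into the ribosome, stood at 76.4 and 37.0 FPKM in the shScr line and at 79.1 and 58.6 FPKM in the shTFEB line. For these genes the vehicle values of the lines were close, and the ATRA value was higher in shTFEB cells. The upper-quartile factors left 61 of the 77 differences above 0, and the median-of-ratios factors 68.

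The deposited lower and upper bounds, added over the models of a gene as the FPKM were, give another reading. For genes with more than 1 model the added bounds are not themselves deposited values. With ATRA the bounds were apart and lower for 73 of the 77 genes in shScr cells (47.9% of all genes compared) and for 67 in shTFEB cells (46.1%). They were apart and higher for 1 gene in shScr cells (33.2%) and 2, MRPL17 and MRPS6, in shTFEB cells (31.8%). Under ATRA the shTFEB bounds were apart and higher for 56 genes (35.0%) and lower for 2, MRPL45 and MRPS33 (19.7%). Under vehicle they were apart and higher for 15 genes (21.9%) and lower for 12 (14.9%). What the bounds cover is not given in the sources used here, and they enclosed the FPKM itself for only 29 to 30 of the 77 genes per group, so they are not taken as replicate error. In shScr vehicle cells the midpoint of the bounds ran from 66.7% to 101% of the FPKM, with a median of 89.3%.

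Other genes of mitochondrial translation were lower with ATRA as well, to different extents. Over all genes compared 15.2% fell in shScr and 10.5% in shTFEB cells. Of the 5 mitoribosomal proteins with other symbols (DAP3, PTCD3, AURKAIP1, CHCHD1, GADD45GIP1) 2 fell in shScr and 1 in shTFEB cells, with medians of -0.94 and -0.63. GADD45GIP1, a large-subunit protein, stood at 69.0 and 16.8 FPKM in the shScr line and at 71.4 and 25.2 FPKM in the shTFEB line, and PTCD3, a small-subunit protein, fell in shScr cells alone (log2 ratios -1.12 and -0.63). Of 27 genes of ribosome assembly and RNA modification 10 and 3 fell (medians -0.75 and -0.54), from MRM1, an RNA methyltransferase, at -1.66 to MTG1, an assembly GTPase, at -0.03 in shScr cells. Of 13 translation factors compared none fell in either line (medians -0.42 and -0.38). Their extremes in shScr cells were TUFM, the elongation factor that delivers transfer RNA, at -0.98 and OXA1L, the insertase that takes up the new proteins, at 0.17. Of 22 mitochondrial aminoacyl-tRNA synthetases 4 and 3 fell (medians -0.74 and -0.59), from NARS2 at -1.89 to HARS2 at 0.05. Those counts are 18.2% and 13.6%, near the shares over all genes.

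Of 18 genes of mitochondrial transcription and RNA handling 13 fell in shScr and 7 in shTFEB cells (medians -1.20 and -0.88), from SUPV3L1, an RNA helicase, at -1.75 to TEFM, a transcription elongation factor, at -0.01 in shScr cells. PNPT1, the RNase that works with SUPV3L1 and was picked after its values were seen, stood at 30.2 and 15.6 FPKM in the shScr line but at 27.5 and 54.3 FPKM in shTFEB cells. Of 12 protease and chaperone genes 7 and 5 fell (medians -1.10 and -0.85), from the chaperone TRAP1 at -2.55 to the protease SPG7 at 0.26. Of 12 regulators of mitochondrial gene expression 2 fell in shScr cells, MYC and PPRC1, and 3 rose, TFEB, TFE3 and ESRRA. The 2 falls are 16.7% of that list, beside 15.2% of all genes compared, of which 12.5% rose. MYC, a broad activator of growth genes, stood at 279 FPKM with vehicle and 25.6 FPKM with ATRA in the shScr line, and at 270.5 and 54.6 FPKM in the shTFEB line. PPRC1, a coactivator of nuclear respiratory factors, had a log2 ratio of -1.66. NRF1 was 7.77 and 5.93 FPKM in shScr cells, a log2 ratio of -0.34. Whether any of these genes bears on the ribosomal protein genes was not tested.

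Outside mitochondrial translation, 1 of the 83 cytosolic ribosomal protein genes compared fell in shScr and 2 in shTFEB cells (medians -0.51 and -0.53). Of 79 nuclear respiratory chain and ATP synthase genes compared 7 and 2 fell (medians -0.53 and -0.26). Over all genes compared 15.2% and 10.5% fell. Under ATRA the median log2 ratio of shTFEB over shScr was -0.16 for the cytosolic and 0.26 for the respiratory chain genes, beside 0.33 for the mitochondrial ribosomal protein genes. Both lists were added for comparison after the values were seen, and the differences between lists were not tested.

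**Figure D5:**
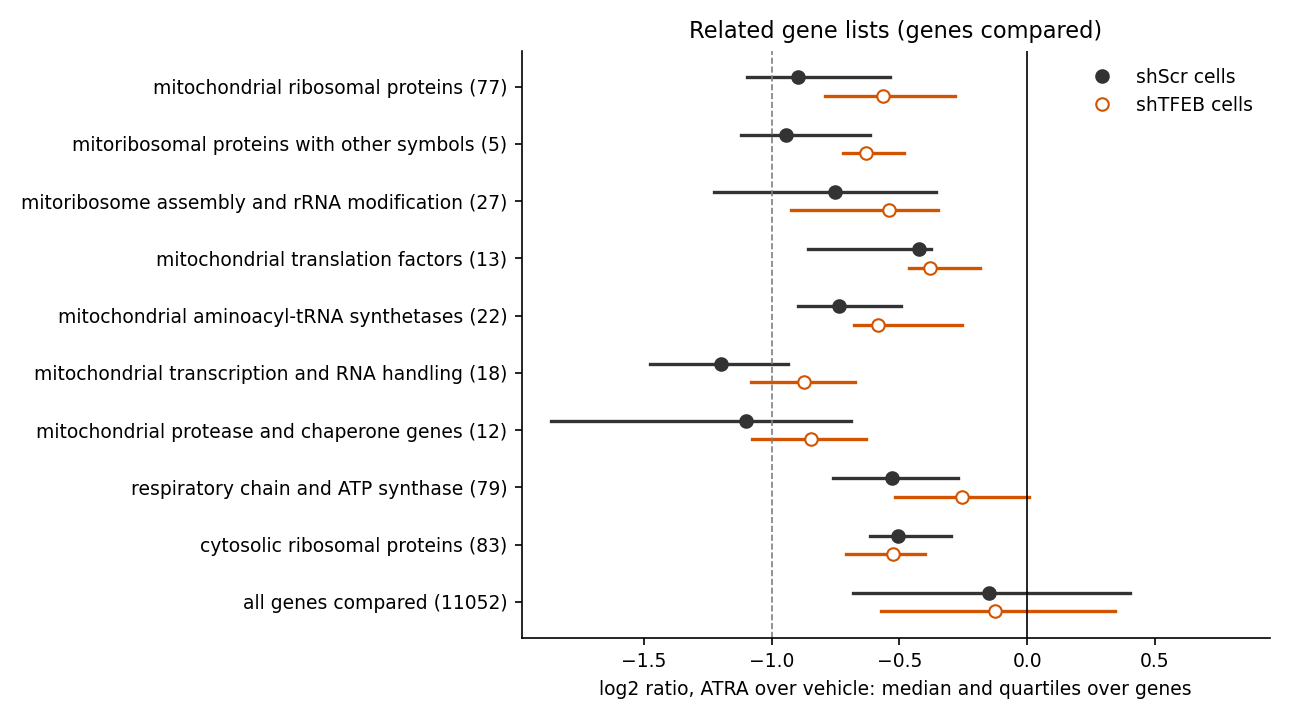
Median (point) and quartiles (line) over genes of the log2 ratio of ATRA over vehicle, for the mitochondrial ribosomal protein genes, related lists and all genes compared, in shScr cells (filled) and shTFEB cells (open), with the number of genes compared in parentheses and a dashed line at the 2-fold mark. The ribosomal family (-0.90 and -0.56) lies between mitochondrial transcription genes (-1.20 and -0.88) and respiratory chain genes (-0.53 and -0.26), and all genes compared have medians of -0.15 and -0.13.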

How the data were processed

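RNA sequencing of 8 NB4 samples (4 groups of 2 in the labels) was read from 4 deposited tables of 65986 transcript models each. The FPKM were made by the authors before deposition. The tools named are TopHat, Cufflinks and Cuffdiff and the build is hg19, per the submitters' processing notes, while versions are not given in the sources used here. Each deposited table also gives a lower and an upper bound per model, of unstated coverage, and a status, which was OK for every model of these genes. How the 2 samples of a group were combined is not stated. The titles of the shScr ATRA samples also carry the word vehicle, and the group was taken from the description label. No column of another series was found.

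Symbols were assigned to model accessions through a RefSeq table (GRCh38.p14, used for names), which matched 39841 of 41159 (96.8%). The FPKM of all models with 1 symbol were added, and so were their lower and upper bounds. Genes whose FPKM averaged 1 or more across groups (11052, all 77 of the family among them) were compared with a pseudocount of 1. No further scaling was applied. Absolute depth is unknown. Relative depth came from the ratio of the smallest steps between low FPKM. Calculations used Python 3.11.15, pandas 2.3.3, numpy 2.4.6 and scipy 1.17.1, and were tested on simulated data. Alternatives were pseudocounts of 0.1 and 5, other filters, both rescalings, the highest model per symbol, and, added after the values were seen, leaving out overlapping genes and midpoints of the bounds.

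The family, its classes and all lists were chosen with earlier results of these data known. Genes named are the 6 highest and 4 lowest by mean level, the 6 largest rises and falls per comparison, any gene past 2-fold between the lines, the MRPS18 paralogues, MRPL10, MRPL11, MRPL12 and MRPS12, and the extremes of each related list. MRPL2, MRPL21, MRPL36, MRPL43, MRPS31, SLC5A3, MPO, ITGAM, ELANE, ESRRA, TFE3, PPRC1, NRF1 and PNPT1 were picked after their values were seen.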

Additional observations from a re-analysis of the deposited data

Results flagged for a closer look

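For 6 genes the log2 ratio of ATRA over vehicle was below 0 in shScr cells and above 0 in shTFEB cells, and this difference between the lines was not tested because each group has 1 value. The shTFEB response minus the shScr response was 0.95 for MRPL40, 0.49 for MRPL47, 0.44 for MRPS18C, 0.19 for MRPL28, 0.18 for MRPS18A and 0.10 for MRPL53. For MRPL28, MRPS18A and MRPL53 every response was under 0.2 in size, so the opposite signs rest on small differences in FPKM. After rescaling by median-of-ratios factors MRPL28, MRPL53, MRPS18A and MRPS18C were above 0 in both lines.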

How the results depend on the processing

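No paired analysis was possible because each group has 1 deposited value per gene, and leaving out a replicate was not possible for the same reason. The count of genes that fell with ATRA in shScr cells, 28, became 16 with a pseudocount of 5, 17 with median-of-ratios and 18 with upper-quartile rescaling, and the median, -0.90, became -0.76, -0.73 and -0.77. In shTFEB cells the 13 falls became 8 with a pseudocount of 5 and 5 with median-of-ratios rescaling, which moved the median from -0.56 to -0.42. With the highest model per symbol the 28 became 27 and the 13 became 10. Median-of-ratios rescaling moved the median of all genes by 0.15 in shScr and 0.13 in shTFEB cells, and relative to that median the family stood at -0.75 as deposited and -0.73 rescaled in shScr cells. The 1 gene higher in shTFEB than shScr cells under ATRA became 0 with a pseudocount of 5 and with either rescaling. With the highest model per symbol it became 2 (MRPL40 and MRPL55). Upper-quartile rescaling moved the family's median in that comparison from 0.33 to 0.22 and that of all genes from 0.06 to -0.02. Relative to all genes the family stood at 0.26 as deposited and 0.25 rescaled. Leaving out the genes that overlap another gene made the 1 rise with ATRA 0 in both lines. Over all genes compared, a pseudocount of 5 gave 949 falls and 873 rises in shScr cells in place of 1676 and 1384, and 582 falls in place of 1159 in shTFEB cells. Median-of-ratios rescaling turned the balance to 1256 falls and 1612 rises in shScr cells, and gave 884 falls and 1440 rises in shTFEB cells in place of 1159 and 1270. Of 2255 recomputed values of 46 named genes 17 changed sign, none of them past the 2-fold mark as deposited. Of these, 16 were under 0.2 in size, and the other was the difference of responses of MRPS12, 0.71 as deposited and -0.18 with its highest model. Without replicates no setting shows how far these values vary between cultures.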

Other observations

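Of the 77 genes 14 had at least 2 models above 0, and models of a gene did not always differ alike. The 2 models of MRPL33 were both lower with ATRA in shScr cells, 75.8 to 58.1 FPKM and 83.6 to 59.9 FPKM. Of the 2 models of MRPL10, 1 was lower (18.8 to 12.1 FPKM) and 1 higher (4.33 to 5.98 FPKM). Of the 3 models of MRPL43 above 0, 1 was listed at 0 in both shScr groups and at 18.8 and 12.8 FPKM in shTFEB vehicle and ATRA cells. How Cufflinks divided shared reads among such models was not tested.

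Relatives of the family that the rule leaves out were also read. MRPL45P2, a pseudogene copy of MRPL45, stood at 7.45 and 5.18 FPKM in shScr and 6.56 and 4.58 FPKM in shTFEB cells. MRPS31P5 stood at 4.90 and 2.01 FPKM in shScr and 4.70 and 2.20 FPKM in shTFEB cells. How reads of near-identical copies were divided between a gene and its pseudogene is not stated, so the values of MRPL45 and MRPS31 are uncertain to that extent. MRPL42P5 stood between 0.916 and 1.55 FPKM in the 4 groups.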
